A study of Mus musculus with 14 samples.

Results

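Interferon-stimulated genes were followed across clones of mouse bone marrow stromal cells. The 41 members were chosen by symbol, from a list of genes known to be induced by interferon, and each of the 41 symbols was found once among the 23331 genes of the deposited table. The cells were flushed from the leg bones (femora, tibiae) of adult irtTA-GBD*-TAg transgenic mice on the C57Bl/6 strain. Clones were grown with dexamethasone and doxycycline, which induce the large T antigen and so keep the cells dividing, and RNA was taken 3 days after both agents were removed. The transgene, the earlier exposure to both agents and their withdrawal were shared by every library.

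Clones were grouped by the lineages they formed in culture assays. The tripotent group (OAC) formed bone, fat and cartilage cells, the OA group formed bone and fat cells, the O group bone cells only and the A group fat cells only. Each of these 4 groups holds 3 libraries. In each, libraries 1 and 2 are independent single clones, each from another mouse, whereas library 3 pools further clones of both mice. A pool of osteo-chondrogenic clones (OC3) and a pool of adipo-chondrogenic clones (AC3) stand alone. The spread within a group is therefore the spread between clones and a pool of 2 mice, and the labels do not say whether a number marks the same mouse in every group. Immortalisation with T antigen and selection as clones limit these cells as a model of marrow stroma.

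Type I interferons are secreted proteins that cells release when sensors of viral or misplaced nucleic acid are triggered. They bind the receptor pair Ifnar1 and Ifnar2, and the kinases Jak1 and Tyk2 then activate Stat2, which joins Irf9 in the complex ISGF3. This complex binds the interferon-stimulated response element in promoters and switches on genes for sensors, antiviral proteins, antigen processing and the ubiquitin-like modifier Isg15. Interferon gamma acts at gamma-activated sites and shares many of these target genes.

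Promoter windows of 300 bases, from 250 before to 50 after the start of a transcript, were taken from RefSeq on build GRCm38.p6 and were matched by symbol for 32 members. They were searched on both strands for GAAA-NN-GAAA, the core of the interferon-stimulated response element, and for TTCNNNGAA, the core of the gamma-activated site. At least 1 window held GAAA-NN-GAAA in 16 of the 32 members (50%), compared with 3.99% of 27025 genes with a window. TTCNNNGAA was present for 7 of the 32 members (21.9%), and for 9.55% of all genes. The following 4 windows belong to the members with GAAA-NN-GAAA of highest mean CPM, a scale not corrected for length, and the matched letters are in capitals. In Stat2 and Ddx58 the match lies on the opposite strand, and in Bst2 and Irgm1 a pair of overlapping matches forms a single run, which in Bst2 also overlaps a TTCNNNGAA match on its left. The windows lie at chr8:71537423-71537722 (minus strand) for Bst2, chr11:48871371-48871670 (minus) for Irgm1, chr10:128270248-128270547 (plus) for Stat2 and chr4:40239776-40240075 (minus) for Ddx58, and each is written along the strand of its gene.
Bst2: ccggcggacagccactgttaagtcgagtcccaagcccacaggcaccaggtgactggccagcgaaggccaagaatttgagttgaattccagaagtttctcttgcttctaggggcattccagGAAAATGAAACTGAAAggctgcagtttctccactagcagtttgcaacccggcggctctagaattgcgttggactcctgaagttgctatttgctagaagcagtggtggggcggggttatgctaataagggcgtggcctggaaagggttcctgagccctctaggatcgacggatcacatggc
Irgm1: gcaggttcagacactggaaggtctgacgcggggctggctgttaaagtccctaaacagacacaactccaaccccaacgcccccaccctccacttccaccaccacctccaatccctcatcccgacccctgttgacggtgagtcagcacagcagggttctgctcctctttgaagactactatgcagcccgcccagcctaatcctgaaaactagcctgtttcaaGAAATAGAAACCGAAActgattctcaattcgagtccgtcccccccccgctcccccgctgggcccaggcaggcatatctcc
Stat2: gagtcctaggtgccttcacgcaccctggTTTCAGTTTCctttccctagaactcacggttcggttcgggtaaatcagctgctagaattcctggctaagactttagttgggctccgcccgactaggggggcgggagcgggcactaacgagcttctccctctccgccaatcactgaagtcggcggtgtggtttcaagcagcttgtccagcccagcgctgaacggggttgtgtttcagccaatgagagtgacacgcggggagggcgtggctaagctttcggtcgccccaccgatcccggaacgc
Ddx58: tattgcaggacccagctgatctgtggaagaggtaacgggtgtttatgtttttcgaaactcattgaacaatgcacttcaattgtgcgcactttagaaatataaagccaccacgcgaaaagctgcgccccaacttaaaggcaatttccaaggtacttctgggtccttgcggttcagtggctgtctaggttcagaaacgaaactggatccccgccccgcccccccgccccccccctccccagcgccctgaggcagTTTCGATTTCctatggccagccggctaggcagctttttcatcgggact
The match starts at base 121 of the Bst2 window, 221 of the Irgm1 window, 29 of the Stat2 window and 253 of the Ddx58 window, counted from the 5′ end. Both of the next windows are shown because they belong to the members of highest mean CPM in which neither motif was found, Lgals3bp at chr11:118401910-118402209 (minus) and Tap1 at chr17:34187306-34187605 (plus).
Lgals3bp: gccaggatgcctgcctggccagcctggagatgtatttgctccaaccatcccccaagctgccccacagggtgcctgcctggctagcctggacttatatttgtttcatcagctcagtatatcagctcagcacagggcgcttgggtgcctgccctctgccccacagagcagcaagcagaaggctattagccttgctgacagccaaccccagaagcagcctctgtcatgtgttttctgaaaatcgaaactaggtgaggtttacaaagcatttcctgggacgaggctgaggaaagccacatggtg
Tap1: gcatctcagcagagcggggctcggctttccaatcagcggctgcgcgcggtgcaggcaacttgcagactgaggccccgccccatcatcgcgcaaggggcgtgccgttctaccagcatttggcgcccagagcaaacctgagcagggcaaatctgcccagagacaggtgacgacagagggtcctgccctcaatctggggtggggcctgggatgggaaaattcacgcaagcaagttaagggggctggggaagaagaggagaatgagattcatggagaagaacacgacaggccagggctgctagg
A match is a run of letters and not a measured binding site, and the absence of a match applies to these windows and letters alone. The members with GAAA-NN-GAAA had a median log2 fold change of -2.01 between O and A libraries and those without it a median of -1.36, 16 members each, with no test of that difference.

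Total counts ranged from 16888190 in OAC2 to 26076539 in OC3, and all 41 members passed the expression filter (1 CPM or more in 3 or more libraries), as did 13896 genes in all. CPM here are read counts scaled to a common library size after TMM adjustment. Libraries differed in how their counts leaned with transcript GC content. The rank correlation between GC content and the deviation of each gene from its mean over 14 libraries ran from -0.54 in OAC3 to 0.65 in OA2 over all genes with a GC value, and O1 was second highest at 0.51. Over the 40 members with a GC value it was 0.73 in OA2 and 0.64 in O1, so several medians and counts of called members are also given without these 2 libraries. The defining leukocyte gene Ptprc was at 0 in 12 of the 14 libraries and Siglech, of plasmacytoid dendritic cells, likewise in 12. By contrast, the listed blood cell markers Cd68, Csf1r, Lyz2 and Cd14 were above 0 in each of the 14 libraries. Cd68 ran from 1.70 to 13.8 CPM and Csf1r from 0.525 to 4.96 CPM. The summed level of the 8 blood cell markers in the table, of 12 listed, was 8.30 to 19.1 CPM in OAC, 9.06 to 11.7 in OA, 11.53 to 65.1 in O and 15.3 to 24.1 in A libraries, and the highest sum, in O1, came mainly from Lyz2 (37.2 CPM) and Cd14 (16.4 CPM). The 5 endothelial markers summed to between 0.590 and 6.56 CPM, and the 10 stromal markers, led by the collagens Col1a1 and Col1a2, to 39488 to 65503 CPM in OAC, 51478 to 78080 in OA, 54634 to 84397 in O and 18005 to 23152 in A libraries. The stromal sums of O and A thus did not overlap, but they rest mostly on Col1a1 and Col1a2, which were higher in O. Cxcl12, Pdgfra and Pdgfrb went the other way, also with no overlap, as 8.28% of all tested genes did in that direction. Cxcl12 had 643, 400 and 646 CPM in O1, O2 and O3, against 4833, 5131 and 2413 CPM in A1, A2 and A3. In Vcam1, Lepr, Eng and Cd44 the O and A values overlapped. The stromal surface gene Thy1 was at 0 in 12 of 14 libraries. The part of other cell types in the members' levels was not tested.

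Members varied together across libraries, and clones of the same group could differ widely. Setting each gene to its own mean over the 14 libraries and averaging over the 41 members on the log2 scale gave -0.93, 0.08 and 0.28 in OAC1, OAC2 and OAC3, and 0.31, 0.67 and -0.35 in OA1, OA2 and OA3. The same mean was -1.40, -1.69 and 0.24 in O1, O2 and O3, against -0.56, 2.39 and 1.05 in A1, A2 and A3. The osteogenic clone O2 was the lowest library and the adipogenic clone A2 the highest, 16.9-fold apart. Group means were -0.19 ± 0.65 in OAC, 0.21 ± 0.52 in OA, -0.95 ± 1.04 in O and 0.96 ± 1.48 in A (SD, n = 3 each), so the groups overlapped. The single clones A1 and A2 lay 2.95 apart on this log2 scale (7.71-fold), further than the largest gap between group means, which was -1.91 for O minus A. The spread in O was 1.93, and there the pool O3 stood above both single clones. Single libraries spread more than means of 3 libraries do, so these gaps are not like for like. Of the variation of this mean over the libraries of the 4 groups, 42.0% lay between groups, where degrees of freedom alone give 27.3%.

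**Figure D1:**
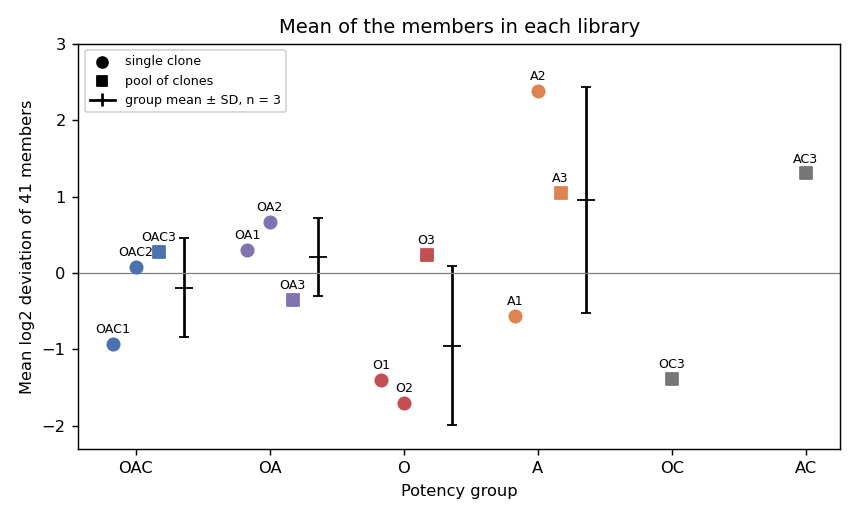
Mean log2 deviation of the 41 members from their own means over 14 libraries (y axis) in each library, by group (x axis). Circles are single clones, squares are pools, and bars give the group mean ± SD (n = 3). O2 is lowest at -1.69 and A2 highest at 2.39, and O3 at 0.24 lies above A1 at -0.56.

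OA2 held the highest level of 8 members, A2 of 27, A3 of 1 and the pool AC3 of 5. The lowest level was in OAC1 for 1 member, in OA2 for 2, in O1 for 11, in O2 for 16, in A1 for 1 and in OC3 for 10. In A2 and in A3 each of the 41 members lay above its own mean, whereas in A1 7 did. Across the 14 libraries the median Pearson correlation between pairs of members was 0.74, with 799 of 820 pairs above 0, and the median over all pairs of tested genes was -0.0026. Members chosen for a shared response and measured in the same libraries are not independent of each other, and this is a description. With an offset for GC content the median was 0.79 and 819 of 820 pairs were above 0. The members least like the rest were Ifit2 (r = 0.31 with the mean of the others), Eif2ak2 (0.39), Samd9l (0.40) and Irgm1 (0.44). These 4 are among the 10 members of lowest GC content. The same 10 also hold Rsad2, which had the highest r of the members (0.97), and Ifit1 (0.93), and the part of GC content was not tested.

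**Figure D2:**
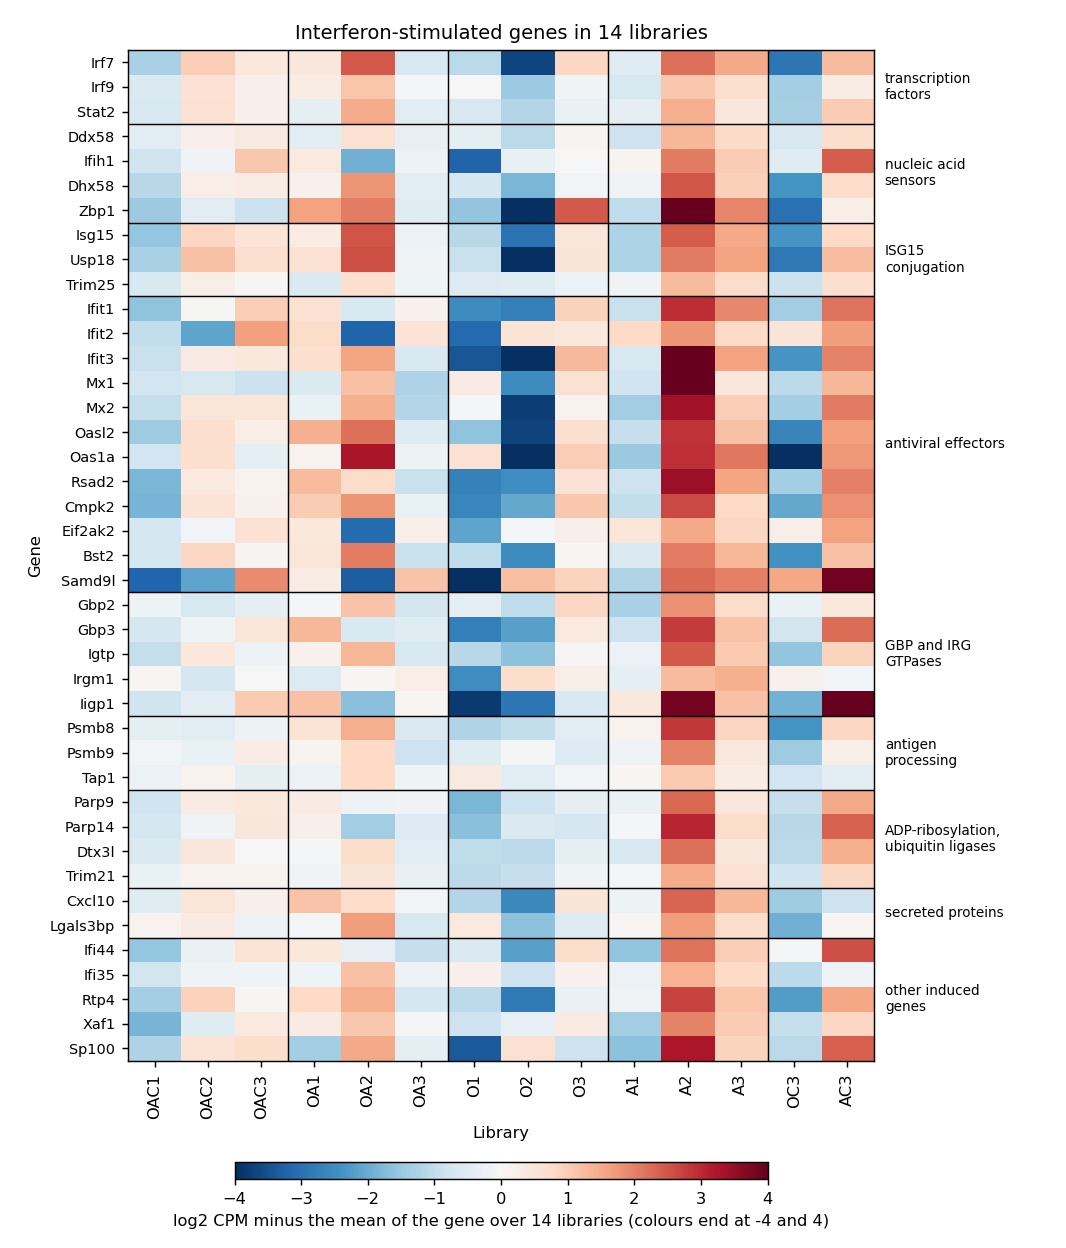
Level of each member (rows, by role) in each library (columns, by group), as log2 CPM minus the mean of the gene over 14 libraries. In O1 and O2, 5 and 4 of 41 members are above the gene mean, in A2 and A3 41 of 41 are, and in OC3 4.

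No member passed an FDR of 0.05 in edgeR's quasi-likelihood test in any comparison. For a difference between any of the 4 groups, 0 of 41 members were called and 0% of all tested genes, and 6 members (Iigp1, Mx1, Parp14, Parp9, Psmb8 and Trim21) had an unadjusted p under 0.05, which is 14.6% of the members and 5.97% of all tested genes. DESeq2 called 3 members, Iigp1, Parp14 and Psmb8, at an adjusted p under 0.05, beside 2.1% of all tested genes. On simulated data of this design DESeq2 called unchanged genes at a rate above its threshold and edgeR did not. Those data were drawn with the dispersions that edgeR had estimated, which favours edgeR in this comparison. There edgeR also missed more of the changed genes than DESeq2, so a count of 0 does not show that no member differs. The 3 DESeq2 calls depended on single libraries: leaving out OAC2, O1, O2 or A2 left 0 of them. In O compared with A, edgeR again called 0 of 41 members (0.0072% of all genes), while 15 were lower in O at an unadjusted p under 0.05 (4.97% of all genes were, and 9.89% passed in either direction), and 0 were higher. DESeq2 called 5 members lower in O than in A, beside 3.03% of all genes in either direction. The 5 were the GTPase Iigp1, the immunoproteasome subunit Psmb8, the ADP-ribosyltransferase Parp14, its family member Parp9 and the ubiquitin ligase Trim21. Without A2 none of the 5 was called (1.76% of all genes were), without O1 1 member was called (1.74%) and without O2 2 (1.98%), whereas without O3 the number was 15 (4.18% of all genes) and without A1 it was 8 (1.9%).

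The direction between O and A was shared by more members than passed any test. All 41 fold changes were below 0, compared with 47.6% of all tested genes. The members vary together over the same libraries, so their 41 directions are not independent observations. Their median was -1.92 on the log2 scale, against 0.03 over all genes. Without A2 the median was -0.97 and 40 of 41 fold changes were below 0. Without OA2 and O1 it was -1.84, with 41 below 0. In 10 members the 3 O libraries lay below the 3 A libraries with no overlap (24.4% of the members and 8.28% of all genes): Eif2ak2, Ifih1, Ifit2, Iigp1, Parp14, Parp9, Psmb8, Rtp4, Trim21 and Trim25. Leaving out A1 raised this to 36 members and leaving out O3 to 24, and with fewer libraries in a group the share of all genes rose too, to 12.9% in each of these settings. In bulk RNA, a smaller share of cells that express a gene and less RNA of it per cell cannot be told apart.

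**Figure D3:**
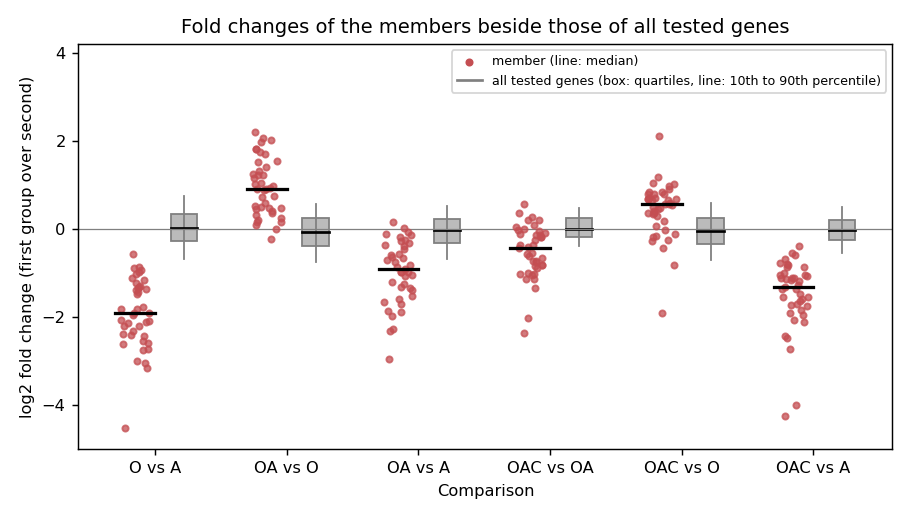
Log2 fold changes (y axis) of the 41 members (points, with their median as a line) and of all 13896 tested genes (box: quartiles, line: 10th to 90th percentile) in 6 comparisons. The members' median is -1.92 for O vs A and -1.32 for OAC vs A, and the medians of all genes lie between -0.08 and 0.03.

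The members' median fold change was smaller in size in the other comparisons. Single members could still differ more there: Zbp1, near 0 in several libraries, had -4.25 for OAC minus A and -2.33 for O minus A. For OAC compared with A, edgeR called 0 members (0.0072% of all genes), 5 were lower in OAC at an unadjusted p under 0.05 (3.58% of all genes in either direction), namely Ifi35, Mx1, Parp14, Psmb8 and Zbp1, with no call from DESeq2 (0 members, 0.411% of genes). All 41 fold changes were below 0, as were 53.2% of all genes, with a median of -1.32 that became -0.46 without A2. For OA compared with A, edgeR and DESeq2 each called 0 members (0.0072% and 0.937% of genes), Parp14 was lower at an unadjusted p under 0.05 (5.27% of genes were past it), and 39 fold changes were below 0, again beside 53.2% of genes. The median of -0.92 there became 0.04 without A2. For OA compared with O, 0 members were called by edgeR or DESeq2 (0% and 0.303% of genes), Psmb8 was higher at an unadjusted p under 0.05 (5.43%), and 39 fold changes were above 0 (43% of genes) with a median of 0.91. Without OA2 and O1 that median was 0.29.

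OAC compared with O likewise gave 0 members called by edgeR or DESeq2 (0% and 0.728% of genes), 0 at an unadjusted p under 0.05 (6.02%) and a median of 0.56, with 32 fold changes above 0 (44.7% of genes); the median was 1.02 without O3 and 0.32 without O2. OAC compared with OA gave 0 called by edgeR or DESeq2 (0% of genes with each), 0 at an unadjusted p under 0.05 (1.17%) and a median of -0.43, with 33 fold changes below 0 (49.8% of genes). Without OA2 the median was 0.02, and without OA2 and O1 it was -0.01. The comparisons share libraries with each other, so their values are not independent.

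Spread within groups was wide beside the differences between groups. The share of the variation of log2 CPM over the 12 libraries of OAC, OA, O and A that lay between groups had a median of 32.1% over the members, from 12.04% for Gbp2 to 60.5% for Iigp1, and a median of 22.5% over all tested genes. It exceeded 50% in 4 members (9.76%), namely Iigp1, Trim21, Psmb8 and Parp14, and in 13.2% of all genes. The SD between libraries of the same group had a median of 1.25 on the log2 scale for members and 0.51 for all genes. In 37 of 41 members the range within the A group alone exceeded the range of the 4 group means. In 28 the range within O did. Single libraries spread more than group means do, and these counts were not taken over all genes. The median range over the members was 1.32 within OAC, 2.03 within OA, 2.87 within O and 2.83 within A. For the group means it was 2.03. Group means take up 27.3% of the variation by degrees of freedom alone in a design of 12 libraries in 4 groups, so the median share is to be read beside that value. With the 8 single clones only the median share was 47.6% over the members and 36.7% over all genes, where degrees of freedom alone give 42.9%. Leaving out 1 library gave 27.2% (without A2) to 51.8% (without A1) over the members, with 22.4% and 23.8% over all genes in the same settings.

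**Figure D4:**
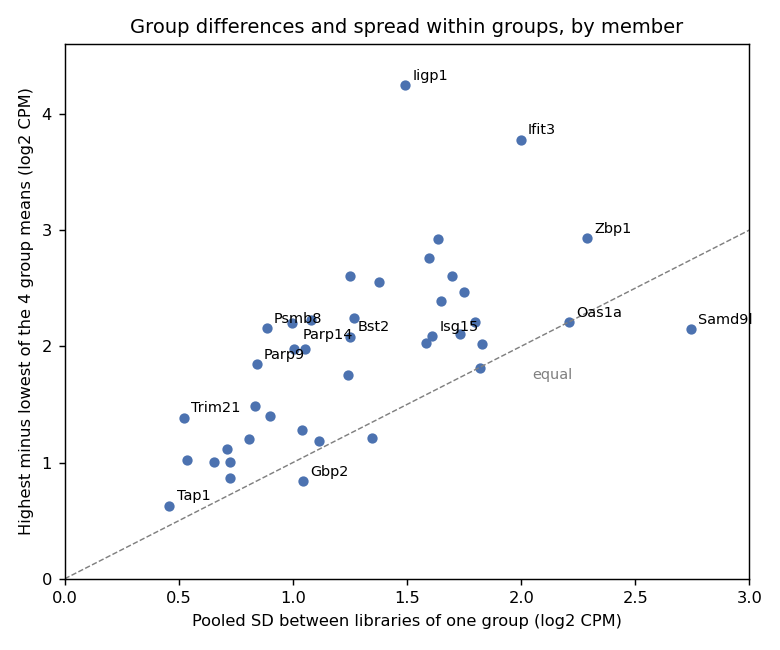
Difference between the highest and the lowest group mean (y axis, log2 CPM) against the pooled SD between libraries of a group (x axis, log2 CPM) for each of the 41 members, with a dashed line where they are equal. Iigp1 has the widest difference at 4.25 beside an SD of 1.49, and Samd9l has an SD of 2.75 beside a difference of 2.15.

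Among the transcription factors, Stat2 and Irf9, both subunits of ISGF3, varied less than Irf7, which drives later interferon gene expression. Stat2 had 55.1, 37.8 and 71.2 CPM in O1, O2 and O3, against 65.9, 232 and 118 CPM in A1, A2 and A3. In the other groups it had 55.1, 130.5 and 97.7 CPM in OAC1, OAC2 and OAC3, and 65.99, 237 and 63.99 CPM in OA1, OA2 and OA3. The O and A values overlapped, with a log2 fold change of -1.34 with a standard error of 0.61 (edgeR FDR 0.51001), and OA2 was the highest library. Irf9 had 55.2, 20.4 and 50.1 CPM in O1, O2 and O3, against 36.1, 117 and 87.1 CPM in A1, A2 and A3. It had 37.3, 82.7 and 63.98 CPM in OAC1, OAC2 and OAC3, and 69.05, 121 and 54.6 CPM in OA1, OA2 and OA3. Its range over 14 libraries was 5.92-fold, A1 lay below O1 and O3, and the O and A groups overlapped (log2 fold change -0.94, edgeR FDR 0.633). Irf7 ranged 70.4-fold, between 160.5 CPM in OA2 and 2.19 CPM in O2.

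The cytosolic sensors of viral RNA Ddx58 (RIG-I), Ifih1 (MDA5) and Dhx58 (LGP2) were expressed in every library. Ddx58 had 50.3, 30.7 and 69.7 CPM in O1, O2 and O3, against 36.6, 163 and 110.4 CPM in A1, A2 and A3. It had 47.1, 74.9 and 82.7 CPM in OAC1, OAC2 and OAC3, and 48.4, 98.2 and 51.7 CPM in OA1, OA2 and OA3. Its 5.28-fold range was the narrowest of the 4 sensors, and A1 lay below 2 of the 3 O libraries. Dhx58 had 14.3, 6.49 and 21.4 CPM in O1, O2 and O3, against 21.01, 130.2 and 45.1 CPM in A1, A2 and A3. It had 10.7, 27.98 and 28.04 CPM in OAC1, OAC2 and OAC3, and 25.96, 77.8 and 16.9 CPM in OA1, OA2 and OA3. A1 was just below O3, and the log2 fold change of -2.22 with a standard error of 0.79 had an edgeR FDR of 0.405. Zbp1, a sensor of left-handed nucleic acid that can trigger cell death, was near 0 in several libraries and had 0.637, 0.0406 and 11.8 CPM in O1, O2 and O3, against 0.987, 53.6 and 8.396 CPM in A1, A2 and A3. In the remaining groups Zbp1 had 0.706, 1.51 and 1.11 CPM in OAC1, OAC2 and OAC3, and 6.56, 9.01 and 1.48 CPM in OA1, OA2 and OA3. O2 alone, with 1 read, sets the lower end of its 418-fold range on the scale with a prior count of 2, and the pool O3 was above A1 and A3. Ifih1 was lower in each O library than in each A library, between 1.21 CPM in O1 and 50.3 CPM in A2, without passing the test (edgeR FDR 0.506).

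Isg15 is a ubiquitin-like protein that is attached to other proteins during an interferon response, Usp18 removes it and also damps receptor signalling, and Trim25 is a ubiquitin and ISG15 ligase that acts on RIG-I. Isg15 had 18.6, 5.07 and 56.001 CPM in O1, O2 and O3, against 16.9, 212 and 115 CPM in A1, A2 and A3. It had 13.7, 70.7 and 58.1 CPM in OAC1, OAC2 and OAC3, and 49.1, 230.1 and 34.2 CPM in OA1, OA2 and OA3. OA2 and A2 were the highest libraries and O2 the lowest, and the O and A groups overlapped (26.6 ± 26.4 in O and 115 ± 97.8 CPM in A, mean ± SD, n = 3 each; log2 fold change -2.11, edgeR FDR 0.6097). Trim25 had 48.9, 50.4 and 59.1 CPM in O1, O2 and O3, against 62.8, 168 and 115 CPM in A1, A2 and A3. It had 45.8, 83.4 and 73.03 CPM in OAC1, OAC2 and OAC3, and 46.4, 111 and 62.6 CPM in OA1, OA2 and OA3. The O libraries lay close together and below each A library, with a log2 fold change of -1.13 with a standard error of 0.41 (edgeR FDR 0.408). Usp18 ranged 94.8-fold and, like Isg15, was highest in OA2 and lowest in O2.

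The 12 antiviral effectors had a median log2 fold change of -2.24 for O minus A, from -3.17 for Mx1 to -1.15 for Samd9l. Bst2 (tetherin) holds budding virions at the cell surface and was the member with the highest level per kilobase of exon, 208 CPM per kb on average. Bst2 had 52.2, 18.6 and 111 CPM in O1, O2 and O3, against 71.1, 437 and 266 CPM in A1, A2 and A3. It had 65.01, 188 and 114 CPM in OAC1, OAC2 and OAC3, and 149, 439 and 56.6 CPM in OA1, OA2 and OA3. OA2 and A2 were nearly equal and highest, and A1 overlapped the O group (log2 fold change of -2.09 with a standard error of 0.90, edgeR FDR 0.481). Oasl2, a relative of the oligoadenylate synthetases, had 11.9, 2.72 and 56.3 CPM in O1, O2 and O3, against 18.999, 269.5 and 82.4 CPM in A1, A2 and A3. It had 13.5, 57.6 and 43.2 CPM in OAC1, OAC2 and OAC3, and 96.6, 167 and 25.4 CPM in OA1, OA2 and OA3. O2 was lowest and A2 highest, and O3 exceeded A1.

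Oas1a makes the oligoadenylates that activate RNase L and had 9.36, 0.162 and 12.1 CPM in O1, O2 and O3, against 2.14, 47.5 and 26.8 CPM in A1, A2 and A3. It had 3.53, 9.56 and 4.66 CPM in OAC1, OAC2 and OAC3, and 6.81, 60.2 and 5.29 CPM in OA1, OA2 and OA3. OA2 was the highest library and A1 the lowest of the A group, below O1 and O3. Ifit3, a tetratricopeptide protein that acts with Ifit1 on foreign RNA, had 1.59, 0.933 and 43.4 CPM in O1, O2 and O3, against 11.4, 304 and 54.5 CPM in A1, A2 and A3. It had 9.53, 22.4 and 23.9 CPM in OAC1, OAC2 and OAC3, and 28.2, 53.3 and 11.7 CPM in OA1, OA2 and OA3. A2 was far above every other library, and O3 stood apart from O1 and O2, so that the log2 fold change of -3.01 with a standard error of 1.48 came with an edgeR FDR of 0.553. Ifit3 and Oas1a have close copies in the mouse genome (Ifit3b and Oas1g), and how reads shared between such copies were counted is not given in the sources used here.

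Samd9l, an interferon-induced antiviral and antiproliferative protein, had 0.127, 20.1 and 16.1 CPM in O1, O2 and O3, against 3.701, 42.2 and 35.1 CPM in A1, A2 and A3. It had 0.883, 1.95 and 32.7 CPM in OAC1, OAC2 and OAC3, and 10.7, 0.804 and 19.4 CPM in OA1, OA2 and OA3. Its range was the widest of the members, 587-fold on the same scale, and it had the lowest GC content of the members with a value, 38.8%. In OA2 and O1, the libraries with the highest GC correlations, Samd9l had 0.804 and 0.127 CPM, and the part of GC content in this was not tested. The other effectors, Ifit1, Ifit2, Mx1, Mx2, Rsad2, Cmpk2 and Eif2ak2, had ranges of 25.9-fold (Eif2ak2) to 139-fold (Mx2). Mx1, whose gene is known to be disrupted in C57BL/6 mice, was the least abundant member per kilobase and reached 15.8 CPM in A2, while the other 13 libraries stayed between 0.0406 and 1.75 CPM. Without A2 its log2 fold change for O minus A was 0.0016, compared with -3.17 with it.

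The GBP and IRG GTPases attack the membranes around intracellular parasites. Iigp1 (Irga6) showed the largest difference between groups of any member. Iigp1 (ENSMUSG00000054072) had 0.0637, 0.203 and 1.31 CPM in O1, O2 and O3, against 2.796, 30.3 and 4.73 CPM in A1, A2 and A3. It had 1.15, 1.51 and 4.34 CPM in OAC1, OAC2 and OAC3, and 4.71, 0.5898 and 2.197 CPM in OA1, OA2 and OA3. Each O library was below each A library, and A2 was the highest of the A group by a wide margin. The log2 fold change was -4.52 with a standard error of 1.32 (edgeR FDR 0.283, DESeq2 adjusted p 0.00372). The O1 value rests on 1 read. Without A2 the log2 fold change from DESeq2 was -2.77 and its adjusted p 0.249.

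Igtp (Irgm3) and Irgm1, regulators of the other IRG proteins, had different library patterns. Igtp had 6.88, 4.71 and 15.4 CPM in O1, O2 and O3, against 12.4, 82.1 and 30.6 CPM in A1, A2 and A3. It had 7.59, 19.6 and 12.8 CPM in OAC1, OAC2 and OAC3, and 16.5, 37.1 and 9.46 CPM in OA1, OA2 and OA3. A1 was just below O3, and the log2 fold change of -2.21 with a standard error of 0.77 had an edgeR FDR of 0.379. Irgm1 had 22.7, 206 and 151 CPM in O1, O2 and O3, against 96.5, 309 and 341 CPM in A1, A2 and A3. It had 135, 79.3 and 126 CPM in OAC1, OAC2 and OAC3, and 87.5, 136 and 155 CPM in OA1, OA2 and OA3. O2 and O3 exceeded A1, A3 was the highest library and O1 the lowest, and the edgeR FDR of its log2 fold change of -0.98 was 0.766. Gbp3 ranged 46.05-fold and Gbp2 8.76-fold, and the share of variation between groups was 39.6% for Gbp3 and 12.04% for Gbp2.

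Antigen processing genes ranged 3.52-fold (Tap1) to 37.0-fold (Psmb8) over the libraries. Psmb8 and Psmb9 are catalytic subunits of the immunoproteasome, and Tap1 is a subunit of the peptide transporter of the endoplasmic reticulum. Psmb8 (ENSMUSG00000024338) had 13.8, 15.99 and 23.7 CPM in O1, O2 and O3, against 35.6, 228 and 57.7 CPM in A1, A2 and A3. It had 24.5, 23.7 and 27.8 CPM in OAC1, OAC2 and OAC3, and 46.4, 87.9 and 21.5 CPM in OA1, OA2 and OA3. No O library reached an A library, and A2 was several times A1 and A3, with a log2 fold change of -2.58 with a standard error of 0.69 (edgeR FDR 0.258, DESeq2 adjusted p 0.00925). Without A2 the DESeq2 adjusted p was 0.2998, and leaving out O1 or O2 in turn gave 0.0706 and 0.0644. Psmb8 was also the 1 member for which OAC lay below A with no overlap, as 6.02% of all genes did (log2 fold change -2.08, edgeR FDR 0.9998). Tap1 had 161, 91.6 and 117 CPM in O1, O2 and O3, against 132, 261 and 155 CPM in A1, A2 and A3. It had 107, 138 and 97.9 CPM in OAC1, OAC2 and OAC3, and 107, 220.3 and 112 CPM in OA1, OA2 and OA3. Its 3.52-fold range over the libraries was the narrowest of the 41 members, and its groups overlapped. Psmb9 ranged 10.5-fold and reached 56.1 CPM in A2, with 24.7 CPM in OA2 as the next highest value.

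Parp14 adds ADP-ribose to proteins, Parp9 belongs to the same family, and Dtx3l is the ubiquitin ligase partner of Parp9. Trim21 is a ubiquitin ligase that binds antibodies on virions that have entered a cell. Parp14 (ENSMUSG00000034422) had 6.18, 13.2 and 12.4 CPM in O1, O2 and O3, against 18.6, 163 and 33.05 CPM in A1, A2 and A3. It had 12.1, 17.8 and 26.98 CPM in OAC1, OAC2 and OAC3, and 22.9, 7.399 and 13.8 CPM in OA1, OA2 and OA3. The A libraries were each above the O libraries, although A2 was several times A3 (log2 fold change -2.75, standard error 0.78, edgeR FDR 0.274, DESeq2 adjusted p 0.0117). Without A2 the DESeq2 log2 fold change was -1.23 and its adjusted p 0.419. Parp9 (ENSMUSG00000022906) had 6.94, 13.96 and 18.98 CPM in O1, O2 and O3, against 20.8, 123 and 34.004 CPM in A1, A2 and A3. It had 14.2, 31.3 and 33.02 CPM in OAC1, OAC2 and OAC3, and 30.9, 21.3 and 22.2 CPM in OA1, OA2 and OA3. O3 came close to A1 without reaching it, and the log2 fold change of -2.15 with a standard error of 0.65 gave an edgeR FDR of 0.312 and a DESeq2 adjusted p of 0.0337. Parp9 was also the 1 member for which OA lay above O with no overlap, as 4.56% of all genes did, at a log2 fold change of 0.90 (edgeR FDR 0.9599).

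Trim21 (ENSMUSG00000030966) had 4.52, 4.91 and 8.29 CPM in O1, O2 and O3, against 8.84, 26.7 and 14.3 CPM in A1, A2 and A3. It had 7.77, 10.5 and 10.5 CPM in OAC1, OAC2 and OAC3, and 8.57, 13.5 and 7.71 CPM in OA1, OA2 and OA3. O3 lay just below A1, and the group means were 5.91 ± 2.07 in O and 16.6 ± 9.12 CPM in A (SD, n = 3 each), with a log2 fold change of -1.49 with a standard error of 0.44 (edgeR FDR 0.292, DESeq2 adjusted p 0.0475). Its within-group SD of 0.52 was close to the median of all genes, and 57.0% of its variation lay between groups. Leaving out O1, O2, A2 or A3 in turn raised the DESeq2 adjusted p to 0.210, 0.211, 0.431 and 0.101. Dtx3l ranged 9.78-fold.

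The secreted members were the chemokine Cxcl10, which attracts T cells, and Lgals3bp, a glycoprotein that binds galectins. Lgals3bp was the member with the highest CPM and measured 484, 118 and 257 CPM in O1, O2 and O3, against 379, 1172 and 608 CPM in A1, A2 and A3. It had 408, 466 and 317 CPM in OAC1, OAC2 and OAC3, and 359, 1184 and 238 CPM in OA1, OA2 and OA3. OA2 and A2 were the highest libraries, O1 exceeded A1, and the log2 fold change of -1.33 with a standard error of 0.67 had an edgeR FDR of 0.571. Cxcl10 had 2.42, 0.852 and 7.88 CPM in O1, O2 and O3, against 4.81, 28.2 and 13.9 CPM in A1, A2 and A3. It had 3.93, 7.797 and 6.398 CPM in OAC1, OAC2 and OAC3, and 12.1, 9.22 and 5.11 CPM in OA1, OA2 and OA3. O3 exceeded A1, and the log2 fold change was -2.07 (edgeR FDR 0.441).

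Of the other induced genes, Ifi35 regulates innate signalling and Xaf1 promotes cell death. Ifi35 had 68.4, 33.2 and 65.8 CPM in O1, O2 and O3, against 50.2, 154 and 102 CPM in A1, A2 and A3. It had 35.6, 51.998 and 52.8 CPM in OAC1, OAC2 and OAC3, and 52.4, 132 and 51.2 CPM in OA1, OA2 and OA3. O1 and O3 exceeded A1. Xaf1 had 12.8, 17.8 and 28.2 CPM in O1, O2 and O3, against 8.59, 90.3 and 45.8 CPM in A1, A2 and A3. It had 6.18, 16.3 and 29.6 CPM in OAC1, OAC2 and OAC3, and 28.3, 47.7 and 21.3 CPM in OA1, OA2 and OA3. A1 was below each O library while A2 and A3 were above, and neither gene passed the test (edgeR FDR 0.638 for Ifi35 and 0.675 for Xaf1). Rtp4, Ifi44 and Sp100 ranged 46.1-fold, 26.7-fold and 97.5-fold.

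Per kilobase of exon, the order of mean levels over the 14 libraries began with Bst2 (208 CPM per kb), Lgals3bp (163), Isg15 (90.4), Psmb8 (39.1) and Ifi35 (38.5), and ended with Rsad2 (0.625) and Mx1 (0.473). The spread over libraries exceeded the gaps between neighbours in this order: Bst2 and Lgals3bp, for example, ranged 23.5-fold and 12.2-fold.

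GC content of the transcripts separated the members in some libraries. The 10 members of lowest GC content (38.8% to 45.6%) had a median deviation of -1.13 in OA2 and -2.91 in O1, and the 10 of highest GC content (51.9% to 55.8%) of 1.71 in OA2 and -0.66 in O1. In A2 the corresponding medians were 2.22 and 2.12, and in A3 1.09 and 0.90, so both sets were high in these libraries. With an offset for GC content the mean of the 41 members was 1.13 in OA2 and -1.12 in O1, compared with 0.67 and -1.40 without the offset, and in A2 it was 2.33 compared with 2.39. O2 and both pools without a replicate leaned the other way: the medians of the low and high GC sets were -0.18 and -1.73 in O2, -0.27 and -2.38 in OC3, and 2.28 and 0.82 in AC3. The other pools had rank correlations of the same sign over the members, -0.53 in OAC3, -0.32 in OA3, -0.12 in O3 and -0.08 in A3. Those of the single clones OA1 and A2 were -0.20 and -0.16. The mean of the 41 members in O2 was -1.82 with the offset and -1.69 without it.

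**Figure D5:**
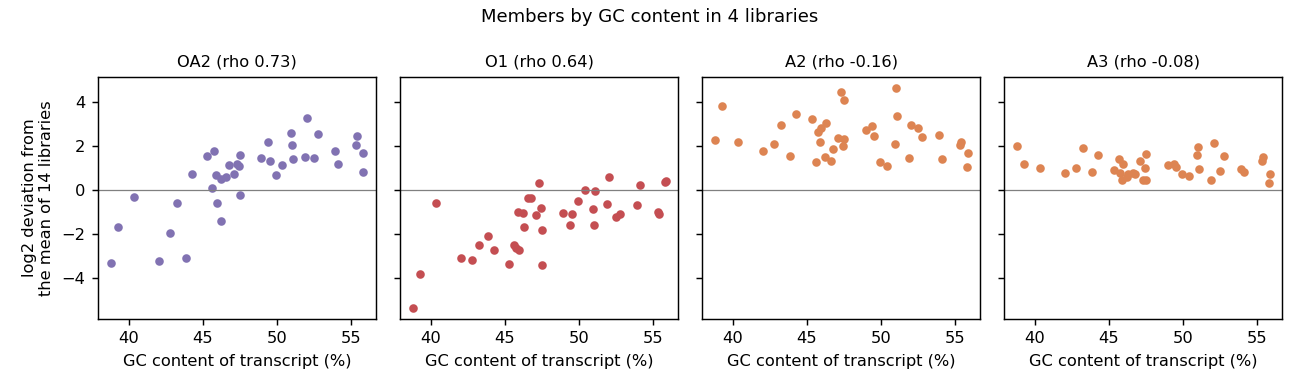
Deviation of each member from its mean over 14 libraries (y axis, log2) against transcript GC content (x axis, %) in OA2, O1, A2 and A3, for the 40 members with a GC value. The rank correlation is 0.73 in OA2 and 0.64 in O1, and -0.16 in A2 and -0.08 in A3.

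Upstream genes of the pathway had medians nearer to 0. For the counts below, 4.97% of all tested genes were lower in O than in A at an unadjusted p under 0.05. In either direction 9.89% passed it, and edgeR called 0.0072% and DESeq2 3.03% of all genes. Of 13 interferon genes listed, 3 were in the table, and none passed the expression filter: Ifnb1 had 7 reads, Ifna4 1 read and Ifnz 25 reads in total over the 14 libraries. Of 11 receptor and JAK-STAT genes, 0 were called by edgeR in O compared with A, 3 were lower and 0 higher at an unadjusted p under 0.05, and the median log2 fold change was 0.06. Ifnar1, a chain of the type I receptor, had 127, 70.5 and 77.4 CPM in O1, O2 and O3, against 82.1, 74.3 and 73.01 CPM in A1, A2 and A3. Ifngr1, a chain of the interferon gamma receptor, had 28.01, 58.2 and 44.97 CPM in O1, O2 and O3, against 139.7, 89.6 and 102 CPM in A1, A2 and A3, and was called by DESeq2 (adjusted p 0.00146) but not by edgeR (FDR 0.176). Among 11 tested adaptors and kinases of nucleic acid sensing the median was -0.16, 0 genes had an unadjusted p under 0.05 and neither tool called any. Fold changes were below 0 in 10 of these 11 genes and in 5 of the 11 receptor and JAK-STAT genes, beside 47.6% of all tested genes.

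The 9 tested genes of the interferon gamma arm and MHC class I had a median of -0.76, with 7 of 9 below 0. Of these 9 genes, 3 were lower at an unadjusted p under 0.05 and 0 were called by edgeR or DESeq2. The counts of this and the following lists stand beside 47.6% of all tested genes below 0 and 4.97% lower at that p. DESeq2 called 3.03% of all genes and edgeR 0.0072%. H2-K1, a class I heavy chain, had 119, 203 and 176 CPM in O1, O2 and O3, against 87.02, 1347 and 353 CPM in A1, A2 and A3, and 773 CPM in OA2. A2 stood far above A1 here too. The 10 negative regulators had a median of -0.49, with 3 lower and 1 higher at an unadjusted p under 0.05 and 0 called by either tool. A list of 34 further tested interferon-induced genes had 30 fold changes below 0 and a median of -0.997, with 6 lower and 0 higher at an unadjusted p under 0.05; edgeR called 0 and DESeq2 called Slfn5, which had 0, 0.162 and 0.15004 CPM in O1, O2 and O3, against 0.247, 11.1 and 1.603 CPM in A1, A2 and A3. Among 8 tested NF-kappa-B targets the median was -0.07 with 4 below 0, 2 lower at an unadjusted p under 0.05, and edgeR called 0. DESeq2 called Tnfaip3, the feedback inhibitor A20, which had 19.2, 12.2 and 21.6 CPM in O1, O2 and O3, against 47.3, 44.9 and 51.4 CPM in A1, A2 and A3 (adjusted p 0.00148).

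Outside the lists, the 10 genes whose log2 CPM correlated most with the mean of the members over the 14 libraries were Rnf213 (r = 0.97), I830012O16Rik (0.97), D14Ertd668e (0.95), Gm12250 (0.94), AI607873 (0.92), Uba7 (0.89), Tmem140 (0.89), Oas1c (0.88), Parp11 (0.88) and AC114007.1 (0.88). By their Ensembl numbers, I830012O16Rik carries the later symbol Ifit3b, D14Ertd668e Phf11d, AI607873 Ifi207 and AC114007.1 Phf11b. Uba7 is the activating enzyme for Isg15. Each of the 10 was highest in A2. In all, 50 non-members had r above 0.8, of which 14 were in the pathway lists, among them Irgm2 (0.96), Oas1b (0.94) and Oas2 (0.94). The points share libraries, depth and GC lean, and the genes were ranked by this measure, so it is a description.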

How the data were processed

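Strand-specific RNA sequencing of oligo(dT)-enriched RNA was deposited as a table of whole-number read counts per gene, per the file headers. CASAVA 1.8.0, bedtools 2.11 and build mm9 are named in the submitters' processing notes; the aligner, read filters and strand setting are not stated there, so overlapping and near-identical genes are uncertain. Exon length (column of the deposited table) served for levels per kilobase. Columns were matched to the 14 libraries by name.

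Testing covered the 13896 genes that reached 1 CPM in 3 or more libraries, done with edgeR 4.0.16 (R 4.3.3; TMM, robust quasi-likelihood F test, 6 group means, 8 residual degrees of freedom), with Benjamini-Hochberg adjustment within each of 7 comparisons and an FDR threshold of 0.05. DESeq2 1.42.0 was the alternative. Both were tested on simulated data. Log2 CPM used a prior count of 2. Positive fold changes mean higher in the group named first. GC content came from a later annotation (40 of 41 members), and promoters from RefSeq.

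Values per library are given for the 2 most abundant members of each role, those called by either tool and the 5 of widest range. Pathway genes were to be named by abundance, up to 4 a list; those named by call, the receptor chains and Slfn5, Tnfaip3, Irgm2, Oas1b and Oas2 were chosen after their values were seen. A gene of the pathway lists is not reported by name here. The members and lists were chosen with earlier results of these data known. Promoter positions use GRCm38.p6; no coordinates of mm9 were used.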

Additional observations from a re-analysis of the deposited data

How the results depend on the processing

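Of the 7 edgeR counts of called members (0 in each), all stayed at 0 with DESeq2 size factors, no filter on low counts, a GC offset, single clones only, without OA2 and O1, with only the compared groups in the fit and without each library in turn. Over all tested genes edgeR called only 0 to 4 in these settings, so the counts of 0 are not particular to the members. DESeq2 itself gave 3 for any group difference and 5 for O vs A, and 0 elsewhere, and the cause was not tested. Replicate numbers did not pair the libraries as a whole: 11 of 18 same-number pairs correlated above 0.1 (r from -0.58 to 0.76), beside -0.70 to 0.67 in the other 36 pairs. Of these, all 6 pairs among the number 3 libraries, the pools, did (0.29 to 0.76), against 4 of 6 for number 1 and 1 of 6 for number 2. With the replicate block, 0 members were called in each comparison, beside 0 or 1 of all tested genes. The median log2 fold changes with this block were 0.84 for OA vs O, -1.49 for O vs A, -0.63 when OA was set against A, -0.57 for OAC vs OA, 0.38 for OAC vs O and -1.25 for OAC vs A. The medians kept their sign in all 9 alternatives beside leave-one-out. Leaving out 1 library at a time gave 0.51 to 1.25 for OA vs O, -2.50 to -0.97 for O vs A, -1.29 to 0.04 for OA vs A, -0.72 to 0.02 for OAC vs OA, 0.32 to 1.02 for OAC vs O and -1.80 to -0.46 for OAC vs A. The median between-group share was 47.6% with single clones only (fewer libraries) and 27.2% to 51.8% leaving out 1 library.

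The following counts for O vs A were varied after the data were seen. Members lower at an unadjusted p under 0.05 numbered 24 with DESeq2, 20 with a GC offset, and 4 (without A2) to 30 (without A1) in leave-one-out fits, beside 15. The share of all genes ran from 3.55% to 5.38% in the leave-one-out fits, and was 5.56% with DESeq2 and 5.71% with the GC offset. Members that did not overlap numbered 10 to 36 (11.5% to 17.8% of all genes), and those with a fold change below 0 numbered 40 to 41. DESeq2 called 0 to 15 members for O vs A (1.74% to 4.18% of all genes) and 0 to 6 for any group difference (1.32% to 3.44%) leaving out 1 library, and 4 and 2 without OA2 and O1 (3.53% and 2.76%). The log2 fold change of Mx1 for O vs A ran from -3.75 (without O3) to 0.0016 (without A2), a change of sign. Members had 577 (Mx1) to 143192 (Lgals3bp) reads in total.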

Other observations

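The pools OC3 and AC3 have no replicate and entered no comparison. The mean of the 41 members was -1.39 in OC3 and 1.31 in AC3 on the log2 scale, and 4 members lay above their own mean in OC3 and 37 in AC3. AC3 held the highest level of 5 members, among them Samd9l (126 CPM), Iigp1 (43.5 CPM) and Eif2ak2 (132 CPM), whereas Cxcl10 was at 3.095 CPM and Zbp1 at 2.54 CPM there. The corresponding values in OC3 were 25.2 CPM for Samd9l, 0.493 for Iigp1, 49.998 for Eif2ak2, 2.01 for Cxcl10 and 0.1895 for Zbp1. The rank correlation of the members' deviations with GC content was -0.58 in OC3 and -0.61 in AC3, and with an offset for GC content the means of the members there were -1.52 and 1.15. Over the 6 pools the mean of the members ran from -1.39 to 1.31 (6.48-fold), and over the 8 single clones from -1.69 to 2.39 (16.9-fold).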
